A study of Homo sapiens with 14 samples.

Results

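The serine/arginine-rich (SR) splicing factors were followed as a family of 10 genes, SRSF1, SRSF2, SRSF3, SRSF4, SRSF5, SRSF6, SRSF7, SRSF9, SRSF10 and SRSF11. They were chosen by their GENCODE symbols, 10 genes of the 60683 identifiers counted, and all 10 passed the filter on low counts in every model. RNA sequencing covered 14 libraries of 2 human cancer cell lines, A549 from lung adenocarcinoma and SUM159 from triple negative breast cancer. A549 cells were untreated, or treated for 10 days with 2 µM palbociclib, an inhibitor of CDK4 and CDK6, with 0.5 µM indisulam, which brings the splicing protein RBM39 to a ubiquitin ligase for degradation, or with both drugs (the combination). A549 and SUM159 cells were also treated for 7 days with 0.5 µM PF-06873600, and SUM159 cells were also sequenced without treatment. PF-06873600 inhibits CDK2 as well as CDK4 and CDK6 and, the paper states, also CDK1. Each of the 7 groups had 2 libraries, which the series describes as technical duplicates, so p-values measure only the spread between these libraries. Each model is 1 cell line grown in culture, and the collection time of untreated cells was not given in the sources used here.

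SR proteins carry RNA recognition motifs that bind short exonic sequences and an arginine/serine-rich domain that recruits the spliceosome to the neighbouring splice sites. Phosphorylation of this domain by SRPK and CLK kinases sets where the proteins reside and when they act, and transportin-SR (TNPO3) carries them into the nucleus. Many SR genes control their own level through a poison exon, a conserved cassette exon with a premature stop codon whose inclusion sends the transcript to nonsense-mediated decay. Several SR proteins, SRSF1 and SRSF3 foremost, are known to support proliferation of tumour cells.

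The reads were counted per gene, so a count held transcripts with and without the poison exon alike. In GENCODE release 44 on hg38, 6 of the 10 genes had at least 1 interior exon that belonged to transcripts annotated for nonsense-mediated decay, overlapped no exon of a protein-coding transcript and held the annotated stop codon. The poison exon is shown for 5 of these genes from its first base to that stop codon, which stands in capitals, because these are the stretches that a gene-level count cannot set apart. SRSF3 (chr6:36599821-36599854, plus strand) had its stop within the first 34 bases of an exon of 456 bases. SRSF7 (chr2:38749319-38749346, minus strand) had it within 28 bases of an exon of 449 bases. SRSF6 (chr20:43459153-43459304, plus strand), SRSF4 (chr1:29166009-29166064, minus strand) and SRSF11 (chr1:70231859-70231908, plus strand) are also given.
SRSF3: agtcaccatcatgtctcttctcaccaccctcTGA
SRSF7: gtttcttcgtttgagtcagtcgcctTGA
SRSF6: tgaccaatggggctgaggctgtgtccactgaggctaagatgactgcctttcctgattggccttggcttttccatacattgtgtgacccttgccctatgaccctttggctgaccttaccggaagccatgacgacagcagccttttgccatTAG
SRSF4: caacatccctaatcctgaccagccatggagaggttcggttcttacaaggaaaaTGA
SRSF11: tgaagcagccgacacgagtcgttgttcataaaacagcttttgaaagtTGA
These exons made up 6.41% of the joined exon length of SRSF3, 11.1% of SRSF7, 5.48% of SRSF6, 1.99% of SRSF4 and 1.38% of SRSF11. SRSF3 had 1 more such exon, SRSF7 2 more, which included a shorter form of the exon shown, and SRSF11 2 more. SRSF9 had 1, of 90 bases. SRSF1, SRSF2, SRSF5 and SRSF10 had none by this rule, although each had between 1 and 3 transcripts annotated for nonsense-mediated decay.

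Promoters were taken from RefSeq (GRCh38.p14) as windows of 300 bases that end 50 bases after a start site, and 9 of the 10 genes had at least 1 window, 11 in all. SRSF2 had no entry. The 250 bases upstream of the start are printed for SRSF1 (chr17:58007247-58007496, minus strand), SRSF3 (chr6:36594112-36594361, plus strand), SRSF7 (chr2:38751362-38751611, minus strand) and SRSF9 (chr12:120469749-120469998, minus strand). SRSF1, SRSF3 and SRSF7 were called lower under the combination and under PF-06873600 in both lines, and SRSF9 varied least in A549. SRSF6 and SRSF10 were also called lower in these comparisons but are not printed. The printed set is therefore only part of the genes that fell. Capitals mark the words of 2 motifs, the CCAAT box and the E2F site, on either strand. The E2F words searched were TTCCCGC and TTGGCGC. Their mixed forms TTCGCGC and TTGCCGC were counted with them.
SRSF1: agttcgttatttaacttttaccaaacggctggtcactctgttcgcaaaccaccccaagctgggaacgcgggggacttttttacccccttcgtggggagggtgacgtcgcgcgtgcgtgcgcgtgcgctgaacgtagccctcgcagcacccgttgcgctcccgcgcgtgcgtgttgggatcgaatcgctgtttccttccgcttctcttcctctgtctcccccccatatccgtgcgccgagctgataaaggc
SRSF3: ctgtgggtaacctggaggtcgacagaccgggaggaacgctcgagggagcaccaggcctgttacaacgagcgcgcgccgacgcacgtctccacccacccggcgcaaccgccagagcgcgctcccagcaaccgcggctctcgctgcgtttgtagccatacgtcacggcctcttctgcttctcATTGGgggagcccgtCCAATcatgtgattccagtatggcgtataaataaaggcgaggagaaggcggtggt
SRSF7: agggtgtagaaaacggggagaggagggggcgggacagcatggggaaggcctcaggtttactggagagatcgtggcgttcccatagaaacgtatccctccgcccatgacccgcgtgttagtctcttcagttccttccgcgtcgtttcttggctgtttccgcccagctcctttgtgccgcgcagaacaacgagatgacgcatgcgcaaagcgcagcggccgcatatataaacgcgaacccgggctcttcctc
SRSF9: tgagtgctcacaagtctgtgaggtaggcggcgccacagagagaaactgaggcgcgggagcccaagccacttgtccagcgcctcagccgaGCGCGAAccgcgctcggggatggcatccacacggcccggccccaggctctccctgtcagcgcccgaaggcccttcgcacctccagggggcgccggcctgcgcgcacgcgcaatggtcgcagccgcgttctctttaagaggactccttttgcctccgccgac
The windows of SRSF1 and SRSF7 held no word of either motif. An E2F word was found in 3 of the 9 genes, SRSF4, SRSF9 and SRSF10, and in 13% of all 35116 windows of the same length. The CCAAT box was found in 1 gene, SRSF3, which held 2 matches, at -70 to -66 and at -55 to -51 from the start, and in 34.6% of all windows. TTTGAA, the core of the CHR element of cell cycle genes, was found in SRSF6 and SRSF11 and in 15.2% of all windows, and the E-box CACGTG in 0 of the 9 genes and in 7.26% of all windows. Both strands were searched, the words of a motif could overlap, and a match is a description of the sequence only.

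Total counts on genes ran from 13060374 to 21149256 per library, and the 10 genes held between 492 and 7747 counts in every library, far above the floor of 3 counts. Levels are CPM, counts scaled to the library's total counts on genes, and each is therefore a share of its library. The epithelial keratin KRT8 lay between 1908 and 5680 CPM in A549 and between 260 and 433 CPM in SUM159, and the mesenchymal filament gene VIM lay between 628 and 1792 CPM in A549 and between 3609 and 4318 CPM in SUM159. Of the 5 A549 markers only EPCAM was low there, at 7.73 to 26.4 CPM, and the hormone receptor genes ESR1 and PGR were at most at 0.662 CPM in every library of both lines. The proliferation genes MKI67, TOP2A and CCNA2 fell and the CDK inhibitor CDKN1A rose in all 5 comparisons of treated with untreated cells, except that the change of CCNA2 under indisulam (log2 fold change -0.11) was not called. With palbociclib the call of CCNA2 was lost by DESeq2 (adjusted p = 0.108), in a model of the compared groups only (adjusted p = 0.118) and without untreated replicate 2 or either palbociclib replicate, and that of TOP2A in the latter model (adjusted p = 0.0756) and without palbociclib replicate 2 (adjusted p = 0.0562). With PF-06873600 in A549 the call of CCNA2 was lost by DESeq2 (adjusted p = 0.0598) and without untreated replicate 2 or either PF-06873600 replicate. MKI67 changed by -2.58 under the combination, -0.97 under PF-06873600 in A549 and -2.03 under PF-06873600 in SUM159 on the log2 scale, and the part of proliferation in the results below was not tested.

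Levels between genes were compared as CPM per kilobase of joined exons. In untreated A549 cells SRSF2, the SC35 protein of nuclear speckles, was highest at 56.7 ± 4.22 (SD, n = 2), followed by SRSF5 at 42.3 ± 5.19 and SRSF9 at 39.2 ± 0.454. SRSF5 and SRSF9 overlapped, as did SRSF1 at 12.2 ± 0.496 and SRSF11 at 10.8 ± 1.46. SRSF10 at 8.03 ± 0.351 and SRSF4 at 6.26 ± 0.426 were lowest. In untreated SUM159 cells the order began with SRSF2 at 157 ± 0.292, SRSF3 at 57.4 ± 1.47 and SRSF7 at 51.2 ± 1.60, and SRSF10 was lowest at 15.8 ± 0.565. The order depends on the length used, since with the longest transcript in place of the joined exons SRSF9 came first in untreated A549 cells at 91.1 ± 1.05 CPM per kilobase, while SRSF2 stayed first in untreated SUM159 cells at 162 ± 0.301.

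**Figure D1:**
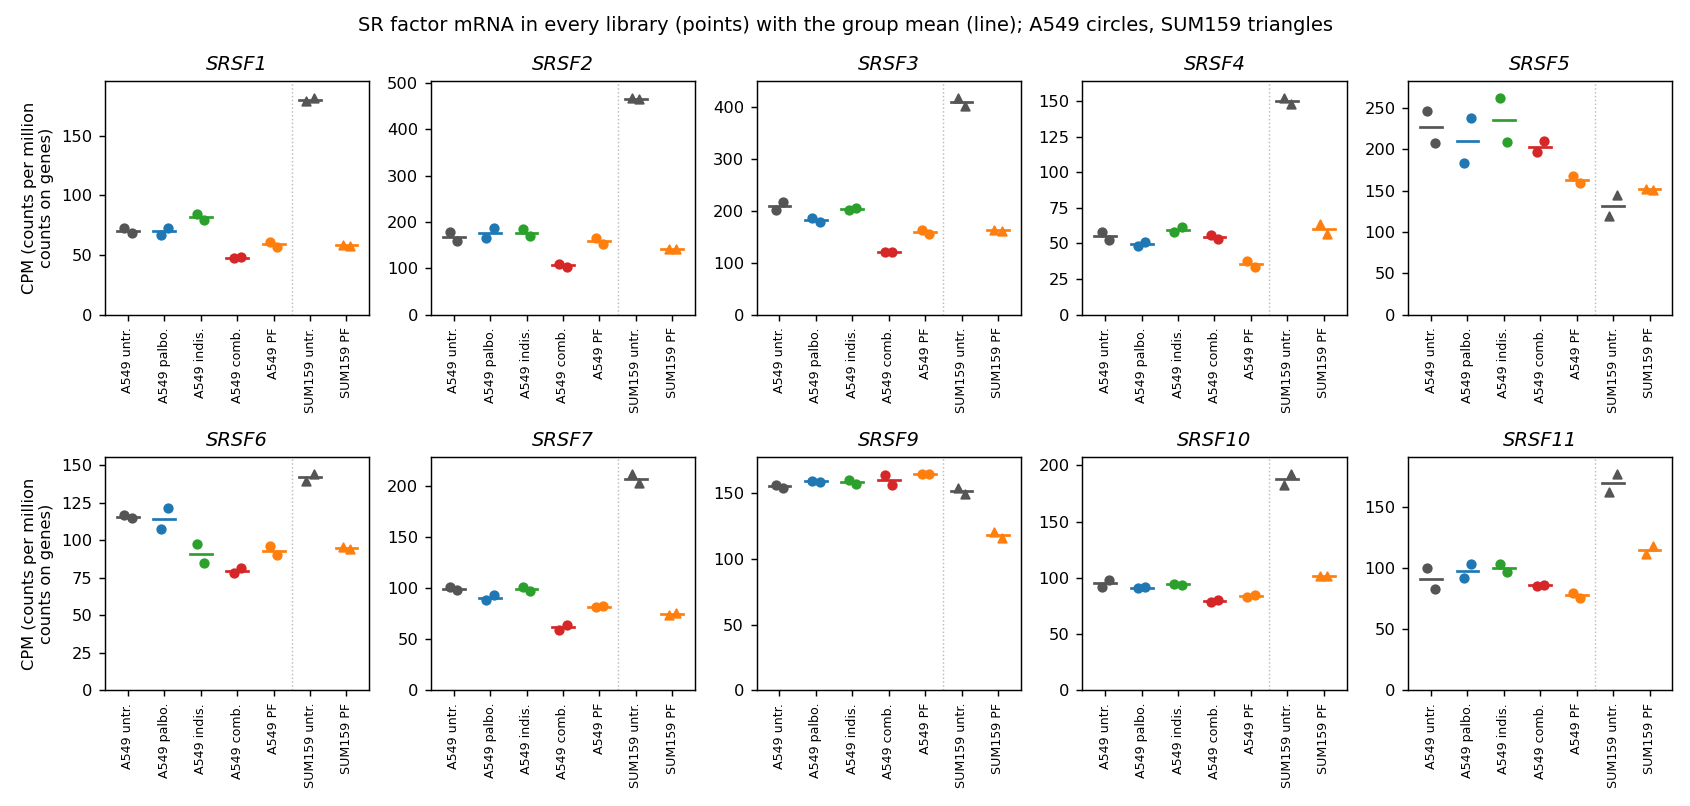
CPM of each of the 10 SR factors in all 14 libraries, 1 panel per gene with an axis from 0, points for libraries and lines for group means. SRSF1, SRSF2, SRSF3, SRSF6, SRSF7 and SRSF10 had their lowest A549 group mean after the combination. In SUM159, SRSF1, SRSF2, SRSF3 and SRSF7 were high in untreated cells (SRSF2 at 466 and 467 CPM) and low after PF-06873600 (SRSF2 at 142 CPM in both libraries).

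Under the combination of palbociclib and indisulam, 6 of the 10 SR factors fell in A549, SRSF1, SRSF2, SRSF3, SRSF6, SRSF7 and SRSF10, and 0 rose. Among all 15780 genes tested, 30% were called lower and 35.1% higher (edgeR quasi-likelihood test with Benjamini-Hochberg adjustment, threshold 0.05). At an unadjusted p under 0.05 the SR factors gave 6 lower and 0 higher, as DESeq2 did after adjustment. The median log2 fold change of the 10 genes was -0.40, beside 0.05 over all genes tested. Their summed level fell from 1287 ± 50.3 CPM (SD, n = 2) in untreated cells to 999 ± 7.34 CPM, which is 77.6% of it. In these bulk libraries fewer cells with a transcript and less of it per cell cannot be told apart.

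SRSF3, the smallest SR protein and an adaptor for mRNA export, changed most. Its level was 202 and 216 CPM in untreated cells and 120 CPM in both combination libraries. The groups lay far apart, and the log2 fold change was -0.80 ± 0.058 (SE; adjusted p = 1.76e-08, edgeR). SRSF7, its close relative with a zinc knuckle, had 101 and 98.3 CPM in untreated cells against 59.1 and 64 CPM, a change of -0.69 ± 0.064 (adjusted p = 2.46e-07). SRSF2 had 178 and 160 CPM against 109 and 104 CPM, a change of -0.67 ± 0.077 (adjusted p = 2.63e-06). SRSF1, which binds purine-rich exonic enhancers, had 72.4 and 68.3 CPM against 47.4 and 48.1 CPM, a change of -0.56 ± 0.072 (adjusted p = 8.46e-06). In none of these genes did the treated and untreated libraries overlap. SRSF6 fell from 117 and 115 CPM to 78.3 and 81.4 CPM (-0.54 ± 0.078, adjusted p = 2.72e-05). SRSF10, which turns into a repressor of splicing when dephosphorylated in mitosis or heat shock, fell less, from 92.2 and 98.1 CPM to 78.5 and 80.7 CPM (-0.26 ± 0.060, adjusted p = 0.00157). These 6 calls held in every alternative setting run.

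The other 4 SR factors were not called under the combination. SRSF4 had 57.8 and 52.5 CPM in untreated cells and 56 and 53.4 CPM after treatment, with a 95% interval of the log2 fold change from -0.18 to 0.16. The groups overlapped. SRSF9 had 156 and 154 CPM against 164 and 156 CPM, with an interval from -0.07 to 0.16. SRSF5 and SRSF11 differed between the 2 untreated libraries (246 and 207 CPM, and 100 and 82.7 CPM), and their intervals were wider, -0.41 to 0.10 and -0.27 to 0.10. Without replicate 2 of the untreated cells both were called lower, SRSF5 at -0.28 (adjusted p = 0.043) and SRSF11 at -0.21 (adjusted p = 0.0165), and with no filter on low counts SRSF5 was called (adjusted p = 0.0484).

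Few SR factors were called with the single drugs. With palbociclib few genes of any kind were called, and the SR counts lay near the shares of all genes. Under palbociclib alone 1 of 10 was called lower and 0 higher, with 7.4% and 8.3% of all genes called in those directions. The median log2 fold change was -0.04, and the summed level was 96.4% of that of untreated cells. The gene called was SRSF3, at 185 and 178 CPM beside 202 and 216 CPM (-0.20 ± 0.057, adjusted p = 0.0259). The groups did not overlap, but the call was lost with DESeq2 (adjusted p = 0.0652), which called 0 of the 10 genes in either direction, in a model of the compared groups only (adjusted p = 0.175), and when untreated replicate 2 (-0.15, adjusted p = 0.0622), palbociclib replicate 1 (-0.23, adjusted p = 0.073) or palbociclib replicate 2 (-0.18, adjusted p = 0.182) was left out. At an unadjusted p under 0.05, 2 genes were lower and 0 higher. Without replicate 1 of the untreated cells SRSF11 was called higher (0.25, adjusted p = 0.0254).

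Under indisulam alone 1 of 10 was higher and 1 lower, where 28% and 17.5% of all genes were called. SRSF6, a regulator of alternative exons in many tissues, had 97.3 and 84.6 CPM beside 117 and 115 CPM in untreated cells, a change of -0.35 ± 0.077 (adjusted p = 0.00206, edgeR). The groups did not overlap, and this call held in every alternative run. SRSF1 had 84.3 and 79.7 CPM beside 72.4 and 68.3 CPM (0.22 ± 0.069, adjusted p = 0.0176). That rise was not called with TMM factors (0.14, adjusted p = 0.109), with DESeq2 (0.15, adjusted p = 0.225), in a model of the compared groups only (adjusted p = 0.0738), or without untreated replicate 2 (0.18, adjusted p = 0.0583) or indisulam replicate 1 (0.18, adjusted p = 0.132). Without untreated replicate 1, SRSF11 was also called higher (0.28, adjusted p = 0.00461). SRSF3 and SRSF7 were at 200 and 204 CPM and at 101 and 97.6 CPM beside 202 and 216 CPM and 101 and 98.3 CPM in untreated cells, and their intervals ran from -0.17 to 0.08 and from -0.14 to 0.13. TMM factors shifted the median of all genes by -0.08 in this comparison, and higher calls were 61.6% of all calls by total counts and 50.4% with TMM factors.

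The combination was then set against each drug alone, groups that are shared with the comparisons above. Against palbociclib 6 of 10 SR factors were lower and 0 higher (26.9% and 33.5% of all genes), with 6 and 0 at an unadjusted p under 0.05 and 7 and 0 by DESeq2. Against indisulam 6 were lower and 0 higher (23.9% and 22% of all genes), with 7 and 0 unadjusted and 5 and 0 by DESeq2. SRSF2 differed most from palbociclib, at -0.73 ± 0.077 (adjusted p = 1.27e-06), and SRSF1 most from indisulam, at -0.78 ± 0.071 (adjusted p = 6.32e-07). SRSF3 and SRSF7 were lower by both contrasts, at -0.60 and -0.56 against palbociclib and at -0.76 and -0.69 against indisulam. SRSF6 was lower than with palbociclib (-0.52 ± 0.078, adjusted p = 4.32e-05), while against indisulam its change of -0.19 was not called (95% interval -0.36 to -0.02, adjusted p = 0.0645). Without indisulam replicate 2 it was (-0.29, adjusted p = 0.0227), as was SRSF5 (-0.36, adjusted p = 0.042), and a model of the compared groups only called both (adjusted p = 0.0173 and 0.0134). With no filter on low counts SRSF5 was called as well (adjusted p = 0.00809).

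SRSF10 was lower than with palbociclib (-0.20, adjusted p = 0.0101), a call lost without palbociclib replicate 2 (-0.19, adjusted p = 0.0636) or combination replicate 1 (-0.18, adjusted p = 0.0742). SRSF11 was at the threshold. Against indisulam it was called lower at -0.22 (adjusted p = 0.0496) but not by DESeq2 (adjusted p = 0.145) or with a filter at a mean of 50 counts (adjusted p = 0.0503), and without any 1 of the 4 libraries compared the call was lost, at -0.17 to -0.27 (adjusted p between 0.0729 and 0.235). Against palbociclib it was not called (-0.18, adjusted p = 0.0803), but it was with TMM factors (-0.28, adjusted p = 0.0107), DESeq2 (adjusted p = 0.0462), no filter on low counts (adjusted p = 0.0472), a model of the compared groups only (adjusted p = 0.0189) and without palbociclib replicate 1 (-0.27, adjusted p = 0.0392).

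An interaction term asked whether the combination departed from what the log2 changes of palbociclib and indisulam add up to. It was called lower for 4 of the 10 genes and higher for 0, beside 14.5% and 10.7% of all genes, with 6 and 0 at an unadjusted p under 0.05 and 4 and 0 by DESeq2. The 4 genes were SRSF1 (-0.77 ± 0.100, adjusted p = 5.75e-05), SRSF2 (-0.80 ± 0.107, adjusted p = 7.3e-05), SRSF3 (-0.55 ± 0.082, adjusted p = 0.000166) and SRSF7 (-0.55 ± 0.089, adjusted p = 0.000339). For SRSF1 this meant 47.4 and 48.1 CPM with both drugs, beside 66.8 to 84.3 CPM over the 4 libraries with 1 drug. SRSF6 was not called (-0.17, 95% interval -0.41 to 0.06), and its fall under the combination stood beside a fall of 0.35 on the log2 scale with indisulam alone. SRSF10 was called only without untreated replicate 2 (-0.23, adjusted p = 0.0328), and SRSF11 only without untreated replicate 1 (-0.47, adjusted p = 0.00112) or palbociclib replicate 1 (-0.40, adjusted p = 0.0443), or with no filter on low counts (adjusted p = 0.0232).

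**Figure D2:**
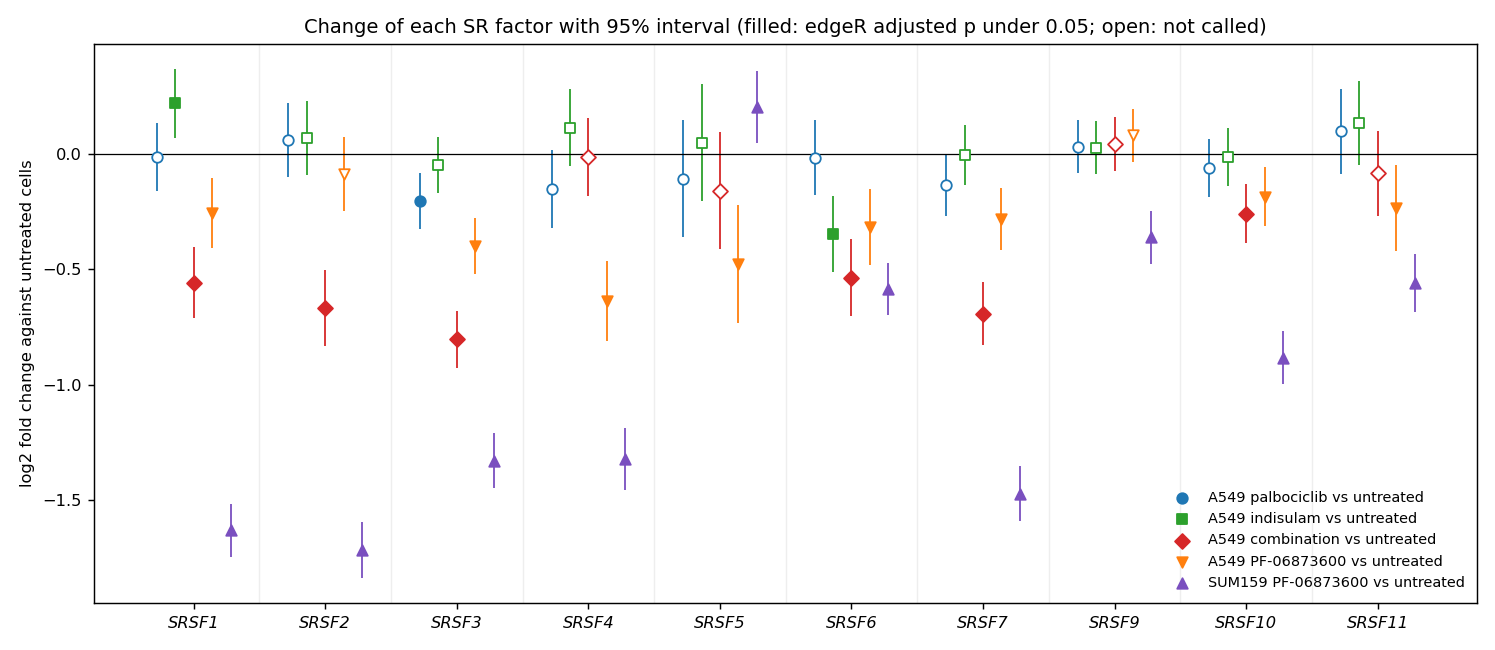
Log2 fold change of each SR factor against untreated cells of its line, with 95% intervals, for 4 treatments of A549 and 1 of SUM159 (filled symbols, adjusted p under 0.05). SRSF3 lay at -0.20 with palbociclib, -0.05 with indisulam and -0.80 with both, and 9 of the 10 genes were lower in SUM159 after PF-06873600, down to -1.72 for SRSF2.

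Beside CDK2, CDK4 and CDK6, PF-06873600 also inhibits CDK1, as the paper states. Its dose and time differed from those of palbociclib, and no test set these drugs against each other. PF-06873600 lowered 8 of the 10 SR factors in A549 and raised 0, beside 27.8% and 28.5% of all genes called lower and higher. At an unadjusted p under 0.05 the counts were 8 and 0, and DESeq2 called 6 and 0. The median log2 fold change was -0.27, beside -0.01 over all genes, and the summed level was 1077 ± 30.7 CPM, 83.6% of that of untreated cells. SRSF4, a large SR protein with a long arginine/serine-rich domain, changed most, from 57.8 and 52.5 CPM to 37.7 and 33.4 CPM (-0.64 ± 0.082, adjusted p = 1.16e-05). SRSF5, known as a factor induced by insulin and by growth signals, went from 246 and 207 CPM to 167 and 159 CPM (-0.48 ± 0.119, adjusted p = 0.00353). Neither of these 2 genes was called under the combination. SRSF3 had 163 and 155 CPM (-0.40 ± 0.057, adjusted p = 3.64e-05), SRSF6 had 96.1 and 90.1 CPM (-0.32 ± 0.077, adjusted p = 0.00291) and SRSF7 had 81.2 and 82.7 CPM (-0.28 ± 0.062, adjusted p = 0.00152). All 5 lay below both untreated libraries.

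The smaller changes were less firm. SRSF1 had 61 and 56.9 CPM (-0.26 ± 0.071, adjusted p = 0.00663), and its call was lost without PF-06873600 replicate 2 (-0.21, adjusted p = 0.0918). SRSF10 had 82.9 and 84.7 CPM (-0.18, adjusted p = 0.0169) and SRSF11 79.9 and 75.7 CPM (-0.23, adjusted p = 0.0332). DESeq2 did not call them (adjusted p = 0.105 and 0.0701), nor did a model of the compared groups only (adjusted p = 0.0676 and 0.0801), and SRSF10 was not called with no filter on low counts (adjusted p = 0.0523). SRSF10 was also lost without untreated replicate 2 (-0.14), PF-06873600 replicate 1 (-0.17) or PF-06873600 replicate 2 (-0.20), and SRSF11 without untreated replicate 1 (-0.09), PF-06873600 replicate 1 (-0.27) or PF-06873600 replicate 2 (-0.19). The count of SR factors called lower was 5 without PF-06873600 replicate 2. SRSF2 had 165 and 154 CPM, overlapped with the 178 and 160 CPM of untreated cells and was not called (95% interval -0.25 to 0.08), as was SRSF9 (-0.03 to 0.20).

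In SUM159 the same dose and time of PF-06873600 lowered 9 of the 10 SR factors and raised 1, beside 35.6% and 38.1% of the 15055 genes tested. DESeq2 gave the same counts. The median log2 fold change was -1.10, beside 0.02 over all genes, and the summed level fell from 2195 ± 16.5 CPM to 1078 ± 6.07 CPM (SD, n = 2), 49.1% of that of untreated cells. SRSF2 had 467 and 466 CPM in untreated cells and 142 CPM in both treated libraries, a change of -1.72 ± 0.056 (adjusted p = 1.7e-12, edgeR). SRSF1 went from 179 and 181 CPM to 58.3 and 57.9 CPM (-1.63 ± 0.054, adjusted p = 1.91e-12). SRSF7 went from 212 and 203 CPM to 73.4 and 75.7 CPM (-1.47 ± 0.055, adjusted p = 7.09e-12). These 3 genes were left with 0.304 to 0.36 of the untreated level, and no library of 1 group came near the other.

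SRSF3 fell from 416 and 401 CPM to 163 and 162 CPM (-1.33 ± 0.056, adjusted p = 2.39e-11). SRSF4 fell from 152 and 148 CPM to 63.7 and 56.3 CPM (-1.32 ± 0.063, adjusted p = 8.29e-11). SRSF10 fell from 183 and 192 CPM to 102 and 101 CPM (-0.88 ± 0.054, adjusted p = 1.43e-09). The falls of SRSF6 (-0.58), SRSF11 (-0.56) and SRSF9 (-0.36) were smaller. SRSF9 fell from 154 and 149 CPM to 120 and 116 CPM (adjusted p = 2.3e-05), so here the gene that varied least in A549 changed as well. SRSF5 alone rose, from 119 and 144 CPM to 152 and 151 CPM (0.21 ± 0.073, adjusted p = 0.0195). Its untreated libraries lay apart, and the call was lost without untreated replicate 1 (0.07, adjusted p = 0.212) or PF-06873600 replicate 1 (0.20, adjusted p = 0.0507).

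The response to PF-06873600 differed between the lines for all 10 genes by a test of the difference in 1 model of all 14 libraries. The change was lower in SUM159 than in A549 for 9 genes and higher for 1, beside 27.2% and 25.8% of the 17279 genes tested, and DESeq2 called 7 lower and 1 higher. The difference was -1.63 ± 0.097 for SRSF2 (adjusted p = 5.51e-11), -1.38 ± 0.089 for SRSF1 (adjusted p = 1.96e-10), -1.19 ± 0.083 for SRSF7 (adjusted p = 5.06e-10) and -0.93 ± 0.077 for SRSF3 (adjusted p = 5.64e-09). SRSF10 and SRSF4 followed at -0.70 and -0.69, and SRSF9 at -0.44 ± 0.075 (adjusted p = 5.04e-05). SRSF5 differed the other way, at 0.68 ± 0.165 (adjusted p = 0.00172), with a fall in A549 and a rise in SUM159. The calls of SRSF6 (-0.27, adjusted p = 0.0286) and SRSF11 (-0.32, adjusted p = 0.023) were lost with TMM factors (adjusted p = 0.0864 and 0.052) and with DESeq2 (adjusted p = 0.109 and 0.0595). SRSF6 was also lost without A549 PF-06873600 replicate 1, SUM159 untreated replicate 2 or either SUM159 PF-06873600 library (-0.22 to -0.28). SRSF11 was lost without A549 untreated replicate 2, A549 PF-06873600 replicate 1, SUM159 untreated replicate 2 or SUM159 PF-06873600 replicate 1 (-0.19 to -0.29).

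Untreated SUM159 cells held more SR factor mRNA than untreated A549 cells. Of the 10 genes, 8 were higher in untreated SUM159 and 1 was lower, beside 41.9% and 36.8% of all genes, and the median difference was 0.97 on the log2 scale, beside 0.08 over all genes. SRSF2 was 2.77-fold higher (1.47 ± 0.068, adjusted p = 1.96e-13), SRSF4 2.72-fold (1.44 ± 0.074, adjusted p = 8.56e-13) and SRSF1 2.56-fold (1.36 ± 0.061, adjusted p = 1.33e-13). SRSF7, SRSF10, SRSF3 and SRSF11 were 1.86-fold to 2.08-fold higher, and SRSF6 1.23-fold. SRSF5 was lower in SUM159 (-0.78 ± 0.117, adjusted p = 5.36e-06), with 119 and 144 CPM beside 246 and 207 CPM in A549. SRSF9 was not called at -0.04, but with TMM factors it was at -0.14 (adjusted p = 0.0291). The cell line and the tissue, patient and culture it comes from cannot be told apart. MKI67 was also higher in untreated SUM159, by 1.67 on the log2 scale.

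After PF-06873600 the summed levels of the lines stood close together, while ratios of single genes lay above and below 1.00. This comparison uses the same libraries as the difference in response and was not tested separately. Scaled to total counts, the summed level was 1077 CPM in A549 and 1078 CPM in SUM159, a ratio of 1.00. In untreated cells that ratio was 1.71. With TMM factors the sums after treatment were 1114 CPM in A549 and 1080 CPM in SUM159. The sums of untreated cells were then 1319 CPM in A549 and 2089 CPM in SUM159. The ratio of SUM159 to A549 after treatment was 0.985 for SRSF1, 1.02 for SRSF3 and for SRSF6, 0.910 for SRSF7, 0.931 for SRSF5 and 0.891 for SRSF2. Apart stood SRSF4 at 1.69, SRSF11 at 1.48, SRSF10 at 1.21 and SRSF9 at 0.718.

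**Figure D3:**
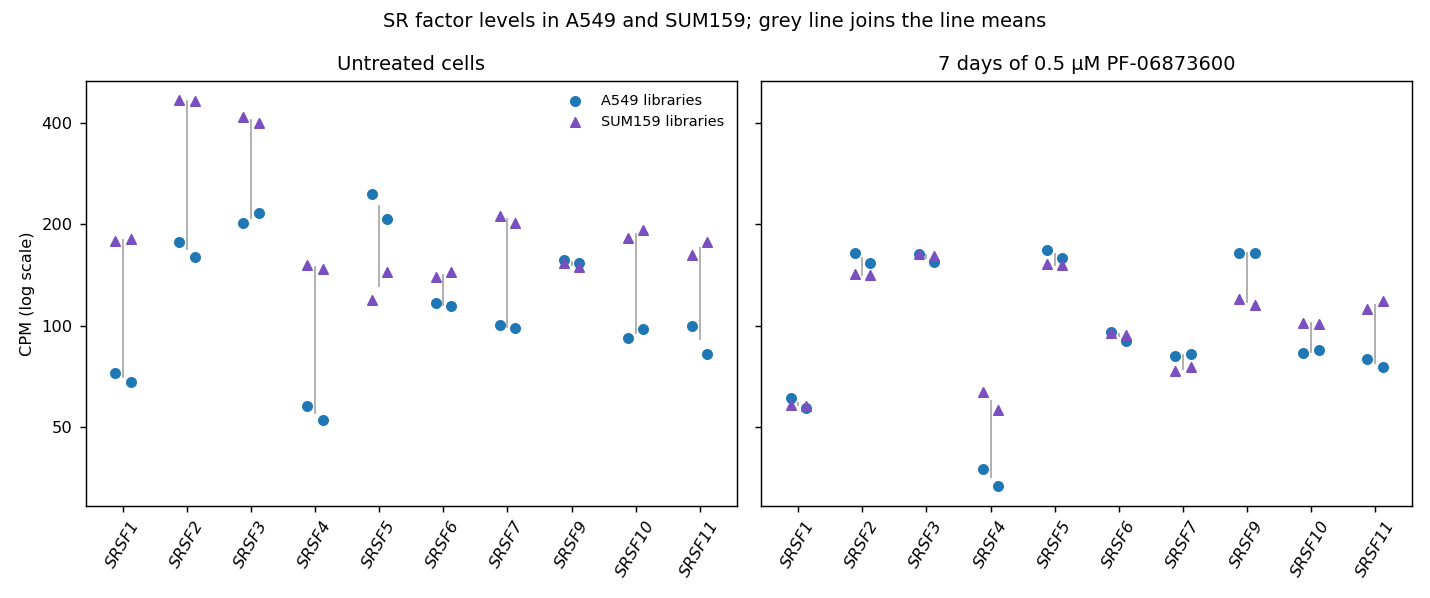
CPM of each SR factor on a log scale in the 2 libraries of A549 (circles) and SUM159 (triangles), without treatment on the left and after PF-06873600 on the right, with grey lines between the means. Scaled to total counts, the ratio of SUM159 to A549 for SRSF1 was 2.56 on the left and 0.985 on the right. For the sum of the 10 genes it was 1.71 and 1.00.

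SRSF9, which antagonises or assists other SR proteins at shared exons, varied least of the 10 genes in A549. Its 10 libraries lay between 154 and 165 CPM, and its group means spanned 0.08 on the log2 scale, beside 0.26 for SRSF10 and 0.80 for SRSF3. SRSF9 shares 1725 exonic bases with GATC on the opposite strand and 124 with NRAV on its own strand, and the strand setting of the counting was not stated, so reads of these genes cannot be fully told apart. GATC lay between 44.8 and 76.8 CPM and NRAV between 30.4 and 37.4 CPM in A549. SRSF2 shares 823 exonic bases with MFSD11 on the opposite strand. MFSD11 was at 19.4 and 19.8 CPM in untreated SUM159 and at 43.1 and 45.6 CPM after PF-06873600, where SRSF2 fell, and lay between 17.6 and 23.6 CPM in A549. SRSF1 and SRSF6 share exons on their own strand with a second protein-coding gene model each, which had 0 counts in all libraries, so reads in the shared exons may have been left uncounted. SRSF3, SRSF5, SRSF7 and SRSF10 overlapped no other gene.

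The kinases and the import receptor of SR proteins were taken as a list of 8 genes, SRPK1, SRPK2, CLK1, CLK2, CLK3, CLK4, DYRK1A and TNPO3. Under the combination 3 rose and 0 fell (35.1% and 30% of all genes), with 3 and 0 at an unadjusted p under 0.05 and 3 and 1 by DESeq2 or with TMM factors. CLK1, a nuclear kinase that releases SR proteins from speckles, rose from 34.5 and 31.7 CPM to 44 and 45.8 CPM (0.44, edgeR), CLK3 by 0.39 and SRPK2 by 0.32. Palbociclib, which raised 8.3% and lowered 7.4% of all genes, moved 0 of 8 (1 higher and 0 lower unadjusted, 0 and 0 by DESeq2), and indisulam, with 28% and 17.5% of all genes, raised CLK3 and SRPK2 and lowered 0 (4 and 0 unadjusted), neither call being made with TMM factors or DESeq2. Under PF-06873600 in A549, 1 rose and 4 fell (28.5% and 27.8% of all genes). SRPK1, the main cytoplasmic SR kinase, rose from 104 and 115 CPM to 145 CPM in both libraries (0.41). CLK2 fell by 0.75, CLK4 by 0.73, DYRK1A by 0.50 and CLK1 by 0.45 on the log2 scale. In SUM159 2, CLK4 and SRPK2, rose and 5 fell (38.1% and 35.6% of all genes). CLK2 went from 32.6 and 46 CPM to 17.7 and 19.7 CPM (-1.07), TNPO3 from 141 and 143 CPM to 80.4 and 77 CPM (-0.85), and SRPK1 from 236 and 232 CPM to 180 and 178 CPM (-0.39). SRPK1 and CLK4 moved in opposite directions in the lines, and the differences, -0.79 and 1.05, were called. The rise of CLK4 in SUM159 (0.32) was lost without untreated replicate 1 (0.10, adjusted p = 0.392) and by DESeq2 (adjusted p = 0.0944), and that of SRPK2 without PF-06873600 replicate 1 (0.20, adjusted p = 0.058).

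Splicing proteins with an arginine/serine-rich domain other than the 10 genes, SRSF8 and SRSF12 among them, formed a list of 16 genes. Under indisulam 8 rose and 2 fell (28% and 17.5% of all genes), with 7 and 2 by DESeq2 and 8 and 2 with TMM factors. The rise of PNN was lost by DESeq2 (adjusted p = 0.155). The falls, of TRA2B and RSRC2, were lost in a model of the compared groups only (adjusted p = 0.0704 and 0.084). Without indisulam replicate 1 RSRC2 changed by -0.15 and RSRP1 by 0.47, beside -0.24 and 0.63, and neither was called. Under the combination 8 rose and 3 fell (35.1% and 30% of all genes), with 6 and 3 by DESeq2 and 7 and 4 with TMM factors. Under PF-06873600 in A549 2 rose and 6 fell (28.5% and 27.8% of all genes), with 1 and 3 by DESeq2. Under palbociclib (8.3% and 7.4% of all genes) only RSRC1 was called (0.38), a call lost in a model of the compared groups only (adjusted p = 0.0509). RBM39, the protein that indisulam sends to degradation, had 150 and 135 CPM of mRNA in untreated A549 cells, 244 and 263 CPM with indisulam and 229 and 227 CPM with the combination, log2 fold changes of 0.83 and 0.68. With PF-06873600 it fell by 0.54 in A549 and by 0.90 in SUM159. SRRM1 and SREK1 also rose with indisulam (0.50 and 0.53) and with the combination (0.55 and 0.29), the last of which was lost without untreated replicate 2 (0.17, adjusted p = 0.0701) or combination replicate 2 (0.25, adjusted p = 0.076). TRA2B, a splicing activator with its own poison exon, fell from 144 and 143 CPM to 78.4 and 77.4 CPM with the combination (-0.89) and from 318 and 310 CPM to 106 and 100 CPM in SUM159 with PF-06873600 (-1.61). In SUM159 13 of the 15 genes tested fell (35.6% of all genes) and 1, RSRP1, rose (0.44, where 38.1% of all genes rose). That rise was lost without untreated replicate 1 (0.16) and by DESeq2 (adjusted p = 0.196). DESeq2 called 12 lower, as the fall of SRRM2 was lost (adjusted p = 0.0868). SRSF12, at 1.09 and 1.2 CPM in untreated A549 cells, rose to 4.47 and 4.12 CPM with the combination and was too low to test in SUM159.

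Nonsense-mediated decay, which removes transcripts with a poison exon, was taken as a list of 10 genes. Palbociclib, with 8.3% of all genes higher and 7.4% lower, moved 0 of 10 (2 higher and 1 lower unadjusted, 0 by DESeq2). Under indisulam, with 28% and 17.5% of all genes, 3 rose and 0 fell (5 and 0 unadjusted, 1 and 0 by DESeq2), but with TMM factors 1 rose and 2 fell. Under the combination 5 rose and 1 fell (35.1% and 30% of all genes), with 4 and 1 by DESeq2 and 4 and 2 with TMM factors. Under PF-06873600 in A549 6 rose and 1 fell (28.5% and 27.8%), with 5 and 1 by DESeq2. The rise of the decay gene SMG9 under the combination was lost by DESeq2 (adjusted p = 0.108). That of UPF3B under PF-06873600 in A549 was also lost by DESeq2 (adjusted p = 0.132). UPF1, the helicase at the centre of the pathway, had 70.9 and 54.6 CPM in untreated A549 cells, 94.7 and 92.2 CPM with the combination (0.57) and 81.6 and 89.3 CPM with PF-06873600 (0.45). In SUM159, where 38.1% of all genes rose and 35.6% fell, 0 rose and 7 fell (0 and 7 unadjusted and by DESeq2), and UPF1 went from 164 and 165 CPM to 109 and 119 CPM (-0.53). The kinase SMG1 was the gene that fell in A549 (-0.33 and -0.35), and it fell in SUM159 too (-0.63). Its fall with PF-06873600 in A549 was lost without PF-06873600 replicate 1 (-0.26, adjusted p = 0.0644).

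**Figure D4:**
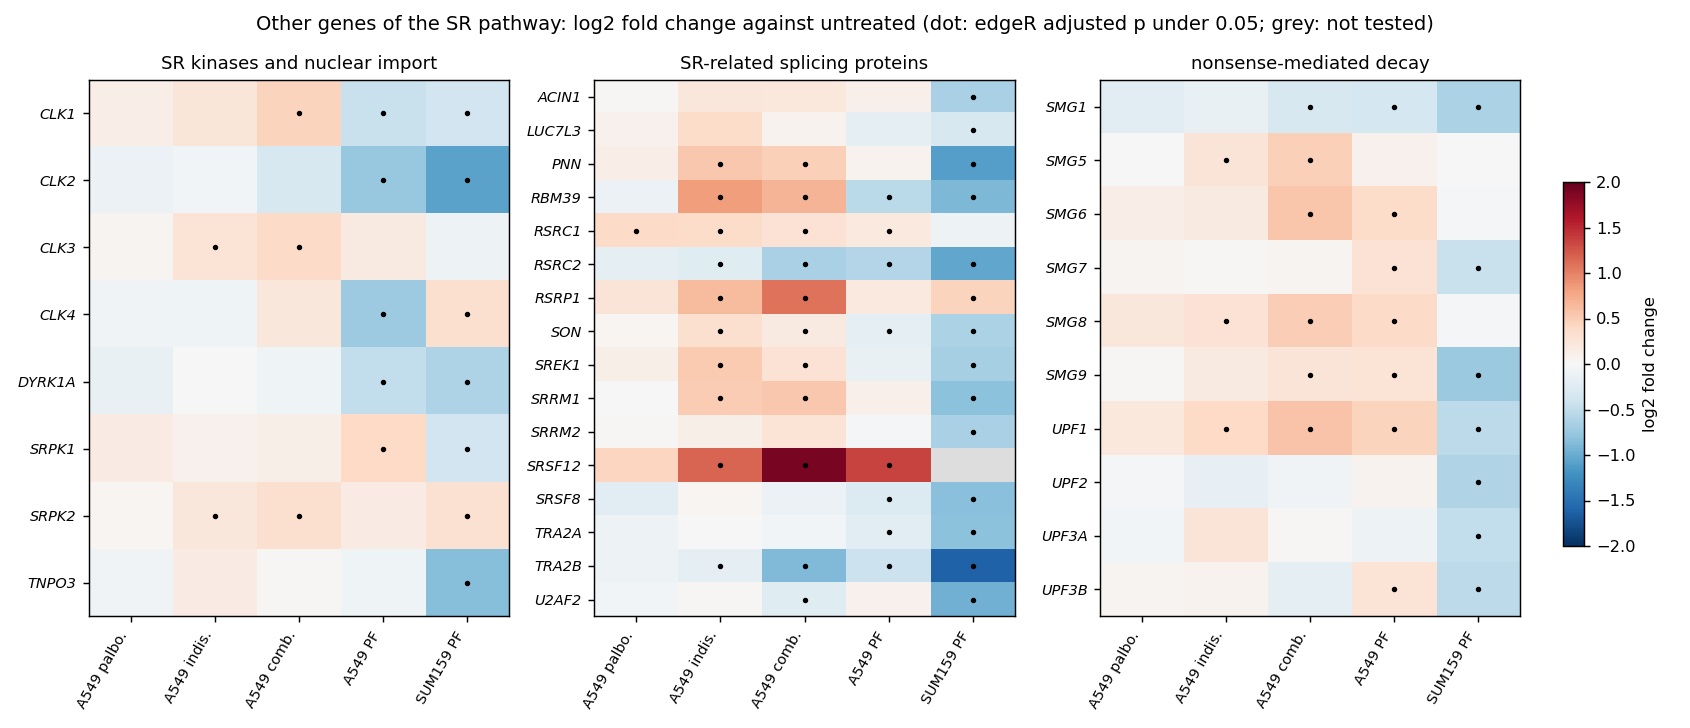
Log2 fold changes against untreated cells for the SR kinases and import receptor, the other proteins with an arginine/serine-rich domain and the nonsense-mediated decay genes, in 5 comparisons, with dots where the adjusted p was under 0.05. RBM39 is red with indisulam (0.83) and blue with PF-06873600 in SUM159 (-0.90), and the decay gene UPF1 is red in A549 (0.57 with the combination) and blue in SUM159 (-0.53).

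SRSF3 had the widest span of group means in A549 of the 10 genes, and the genes most like it were sought among 7629 genes with a mean of at least 10 CPM. Likeness was the root mean square distance between the log2 fold changes of the 5 comparisons with untreated cells, 4 of which share the A549 controls. The nearest were LSM2, a subunit of the U6 snRNP ring, at 0.0602, and IMPDH2, the rate-limiting enzyme of guanine nucleotide synthesis, at 0.0799. SRSF7 came next at 0.104, followed by the nucleolar chaperone NPM1 at 0.108 and the histone chaperone ANP32A at 0.117. LSM2 changed by -0.27 with palbociclib, 0.04 with indisulam, -0.82 with the combination, -0.40 with PF-06873600 in A549 and -1.26 in SUM159, where SRSF3 changed by -0.20, -0.05, -0.80, -0.40 and -1.33.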

How the data were processed

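RNA was sequenced from 14 libraries of A549 and SUM159 cells, 2 per group. The authors aligned the reads to GRCh38 (HISAT2 2.2.1 and HTSeq are named in the submitters' processing notes) and deposited, for each library, whole counts of reads per gene, not normalized, for 60683 identifiers, of which 60370 had a symbol in GENCODE release 44. The 9 summary lines of each file were left out of the totals, which ran from 13060374 to 21149256. At that depth 3 counts, the floor used, equal 0.142 to 0.23 CPM, for counting error only.

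Genes were filtered with filterByExpr and tested with the quasi-likelihood F test of edgeR 4.0.16 in R 4.3.3 (limma 3.58.1), with library size as the total counts on genes and Benjamini-Hochberg adjustment over all genes (threshold 0.05). The A549 model held 10 libraries and 15780 genes, the SUM159 model 4 and 15055, and the model of both lines 14 and 17279. Standard errors came from the log2 fold change and its F statistic, and intervals cover 95%. With 2 against 2 libraries an exact permutation test cannot give a two-sided p under 0.333. Common dispersion corresponded to a coefficient of variation of 0.0555 for A549 and 0.0472 for SUM159, and the 2 libraries of a group differed beyond sampling noise (chi-square per degree of freedom 1.61 to 9.57). On simulated counts with 200 changed genes, the A549 fit for palbociclib called 91.5% of them among 15369 genes and the SUM159 fit 94.5% among 14819, and 2.66% and 6.44% of the calls were false. Every simulated gene had the common dispersion, and only genes with a mean of at least 50 counts were changed. The shares therefore describe simpler counts than the real ones.

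Alternatives were DESeq2 1.42.0, TMM factors, the fit without a filter, a stricter filter (mean count 50), a model of the 2 compared groups, the replicate number as a block and leaving out each library. The crossed blocks were added after the data were seen. All 10 genes are described in every comparison, and the members and gene lists were chosen with earlier results of these data known. Tables and figures were made in Python 3.11.15 with numpy 2.4.6, pandas 2.3.3 and matplotlib 3.10.9.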

Additional observations from a re-analysis of the deposited data

Results flagged for a closer look

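The log2 response to PF-06873600 differed between SUM159 and A549, by a test of the difference in the model of both lines, for each of the 10 SR factors (2 libraries per group). The response in SUM159 minus that in A549 was -1.634 for SRSF2, -1.377 for SRSF1, -1.194 for SRSF7, -0.9328 for SRSF3, -0.6994 for SRSF10, -0.6863 for SRSF4, -0.4435 for SRSF9, -0.324 for SRSF11 and -0.2693 for SRSF6. It was 0.6813 for SRSF5. The differences of SRSF6 and SRSF11 were not called with TMM factors (adjusted p = 0.0864 and 0.052) or by DESeq2 (adjusted p = 0.109 and 0.0595), nor in some of the fits that left out 1 library. In 9 of the 10 genes the treated SUM159 libraries lay below the untreated ones of that line, and SRSF5 was the exception. Outlier tests need at least 4 libraries per group and were not run.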

How the results depend on the processing

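The calls of SRSF1, SRSF2, SRSF3 and SRSF7 under the combination, by the interaction term and in SUM159 held in every alternative run. Palbociclib calls depended on the setting. Without 1 library the count of SR factors lower ranged from 0 to 1 and higher from 0 to 1, and all genes called from 1301 to 3331 beside 2478. DESeq2 and the compared groups only gave 0 SR factors lower, and 1589 and 949 genes in all. For indisulam, TMM factors, DESeq2 and the compared groups only gave 0 SR factors higher, and leaving out 1 library 0 to 2. Leaving out 1 library gave 5 to 7 lower with PF-06873600 in A549 and 0 to 1 higher in SUM159. TMM factors gave 2 lower in untreated SUM159. By TMM factors the summed level, relative to untreated cells, was 74.8% with the combination and 84.5% with PF-06873600 in A549. It was 51.7% with PF-06873600 in SUM159.

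The sign turned in the cases below, in values that were not called themselves. Some ranges also hold a called value of SRSF11. It was 0.25 with palbociclib, without untreated replicate 1, and -0.21 with the combination, without untreated replicate 2. With TMM factors indisulam gave -0.0076 for SRSF2, -0.028 for SRSF5 and -0.050 for SRSF9, and the combination gave SRSF9 -0.040 against untreated cells and -0.081 against palbociclib. DESeq2 gave -0.020 for SRSF5 and -0.043 for SRSF9 with indisulam, -0.034 for SRSF9 against palbociclib and 0.0085 for SRSF9 in the interaction. Without 1 library each, palbociclib gave -0.075 to 0.047 for SRSF1, -0.031 to 0.15 for SRSF2, -0.31 to 0.066 for SRSF5, -0.11 to 0.069 for SRSF6 and -0.031 to 0.25 for SRSF11. Indisulam gave -0.0025 to 0.15 for SRSF2, -0.094 to 0.0024 for SRSF3, -0.12 to 0.21 for SRSF5, -0.028 to 0.021 for SRSF7 and -0.057 to 0.033 for SRSF10. The combination gave -0.080 to 0.059 for SRSF4 and -0.21 to 0.061 for SRSF11, and against palbociclib -0.22 to 0.15 for SRSF5 and -0.024 to 0.047 for SRSF9, which against indisulam ranged from -0.019 to 0.052. The interaction ranged from -0.047 to 0.092 for SRSF4, -0.28 to 0.098 for SRSF5 and -0.053 to 0.018 for SRSF9. The cause was not tested.

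The replicate numbers did not pair the libraries (correlation of same-numbered deviations -0.345 for palbociclib and 0.349 for indisulam with untreated cells), and with the replicate block the call changed for 1 of 100 pairs of an SR factor and a comparison, SRSF11 between combination and indisulam (-0.22, adjusted p = 0.055). The block with crossed numbers, added after the data were seen, called 3023 genes for palbociclib, beside 2337 uncrossed, and no call of an SR factor changed with it there or between the untreated lines. Calls of the genes of the other lists, with MKI67, TOP2A, CCNA2 and CDKN1A among them, were kept in 1258 alternative fits. They were lost in 120, and 0 turned in sign. These genes were followed only where the main fit called them, so gained calls could not appear. SR factors were followed whether called or not, so the 2 sets of counts cannot be compared. Of the 16 proteins with an arginine/serine-rich domain, DESeq2 called 1 higher and 3 lower with PF-06873600 in A549, beside 2 and 6, and 0 higher and 12 lower in SUM159, beside 1 and 13. It called 1 SR kinase higher in SUM159, beside 2, and TMM factors gave 2 decay genes lower with the combination, beside 1. TMM factors moved the median of all genes by at most 0.09 in size.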
